A study of Mus musculus with 12 samples.

Results

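The quantity described here is the genotype by treatment interaction in mouse bone-marrow-derived macrophages: the log2 response to ADP-heptose (ADP-Hep) in wild-type (WT) cells minus the log2 response in cells without Alpk1 (KO). It used all 12 of the 12 RNA-seq libraries, 3 in each of 4 groups, and the upper part of the gene table (56748 rows less 19206 that were left out), of which 12261 genes had enough counts to be tested. A positive interaction means that the response was more upward, or less downward, in WT cells. A negative interaction means that it was more downward, or less upward, in WT cells. Each interaction is a log2 value ± its standard error from 3 libraries a group, and a gene was called where edgeR's quasi-likelihood test gave a Benjamini-Hochberg adjusted p under 0.05 over all genes tested.

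The 4 groups were WT cells with PBS, WT cells with 100 µM ADP-Hep, KO (Alpk1-/-) cells with PBS and KO cells with ADP-Hep, each for 4 h. All came from bone marrow of mice labelled C57BL/6N (C57BL/6 in the design text) and were grown for 7 days in medium conditioned by L929 cells, a fibroblast line whose medium supplies macrophage growth factor. The part of Alpk1 that is deleted, the age and sex of the mice, and whether WT and KO mice were littermates are not given in the sources. Nothing there ties the 3 libraries of a group to separate mice or cultures, so a p-value here weighs a difference against the spread among libraries, and that spread may be technical.

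ADP-Hep is a sugar nucleotide that Gram-negative bacteria make on the way to the core of their lipopolysaccharide. In the cytosol of a host cell it binds the kinase ALPK1, which phosphorylates the adaptor TIFA. TIFA then assembles with TRAF6, the TAK1 and IKK kinase complexes are activated, and NF-kB and AP-1 transcription factors induce cytokine, chemokine and feedback genes. In macrophages such signals also start interferon production, and secreted interferon acts back on the cells through STAT and IRF factors.

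Sequencing gave 16110654 to 31333973 counted reads in a library, 71.3 to 85.2% of them in the part of the table used. Of the 8 macrophage markers all were tested, and their summed level was 25111 to 28077 CPM (counts scaled to library size) in the 12 libraries. No marker of T and NK cells, fibroblasts, mast cells or erythroid cells passed the filter on low counts, and Cd3e, Pax5, Fcer1a and the globin genes Hba-a1, Hbb-bs and Hbb-bt had 0 counts in every library. Of the 11 neutrophil markers 8 were tested and 4 (Ltf, Ngp, S100a9 and Camp) were called positive. The share called was 50%, against 49.5% of all genes tested (24.6% positive and 24.9% negative). The 11 markers summed to 208 to 230 CPM in WT PBS libraries and 187 to 208 in WT ADP-Hep libraries. In KO libraries they summed to 242 to 278 CPM with PBS and 176 to 189 with ADP-Hep. The dendritic cell and B cell lists had 1 tested marker each, Zbtb46 (not called) and Cd79b (called negative, -0.43 ± 0.16), and summed levels of 0.856 to 2.01 and 7.11 to 17.8 CPM. Of the progenitor markers, 3 of 5 were tested and 2 were called negative (against 24.9% of all genes tested), with Sox4 the largest. In bulk RNA, fewer cells of a type and less of an RNA per cell cannot be told apart. The part of these cell markers in the results below was not tested. In 3 groups 1 library stood apart from the other two by the chi-square per degree of freedom between libraries. It was 10.1 for pairs with replicate 2 of the KO PBS group and 3.93 for the other pair. It was 5.79 and 7.17 with replicate 3 of the WT PBS group against 1.93, and 8.24 and 8.38 with replicate 1 of the WT ADP-Hep group against 4.90. This measure grows with read depth, and each of these libraries had the most reads of its group in the rows used. The median chi-square over genes was 0.97 and 0.95 against 0.77 in KO PBS and 1.376 and 1.285 against 0.556 in WT PBS. In WT ADP-Hep it was 0.82 for replicates 1 and 2, 1.33 for 1 and 3 and 0.99 for 2 and 3, which does not set replicate 1 apart. Values without one of these libraries are given beside several of the results below.

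Alpk1 itself (ENSMUSG00000028028; chr3:127670310-127780527, minus strand of mm10) was measured at 30.1, 32.1 and 25.9 CPM in the 3 WT PBS libraries and at 53.8, 55.3 and 52.3 CPM in the WT ADP-Hep libraries. Libraries are given in the order of replicates 1, 2 and 3, and for KO cells with ADP-Hep as replicates 1, 3 and the library whose number matched no label. The KO libraries held 22.3, 20.3 and 21.3 CPM with PBS and 21.6, 19.2 and 22.5 CPM with ADP-Hep. Every KO library lay below every WT library, and the PBS and ADP-Hep groups of KO cells overlapped. The interaction was 0.89 ± 0.11 (adjusted p = 2.1e-07). The gene-level count sums all exons, so the reads left in KO cells do not show which part of the transcript remained. Of the 15 tested genes of the ALPK1 to NF-kB relay, 11 were called positive and 2 negative, against 24.6% and 24.9% of all genes, and their median interaction was 0.39 against -0.0099 over all genes.

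Within the relay the largest positive interactions were those of Birc3, Traf2 and Traf3, which encode proteins that sit at TNF-family receptors. Birc3, the ubiquitin ligase cIAP2, was at 46.2, 45.4 and 45.3 CPM in WT cells with PBS and 232, 222 and 222 with ADP-Hep, and at 36.5, 37.9 and 39.6 with PBS and 35.7, 31.97 and 32.96 with ADP-Hep in KO cells. The KO response was a small called fall, and the interaction was 2.48 ± 0.08, followed by 1.31 ± 0.11 for Traf2 and 1.21 ± 0.08 for Traf3. The related Birc2 (cIAP1) and Traf6 had 0.46 ± 0.11 and 0.25 ± 0.08. Tifa, the ALPK1 substrate, had a smaller value of 0.39 ± 0.08, and the IKK subunits Chuk, Ikbkb and Ikbkg had 0.55, 0.37 and 0.40. Tifab, a TIFA-related protein known as an inhibitor of TIFA and TRAF6 signalling, went the other way. It was at 77.5, 77.2 and 65.8 CPM in WT PBS libraries and 38.96, 37.3 and 38.4 in WT ADP-Hep libraries, against 74.3, 87.5 and 71.97 with PBS and 97.2, 101 and 89.3 with ADP-Hep in the KO libraries. It fell in WT and rose in KO cells, all WT ADP-Hep libraries lay below all others, and its interaction was -1.23 ± 0.10 (adjusted p = 2.0e-09). The TAK1-binding subunit Tab1 was also called negative, at -0.42 ± 0.14. The kinase Map3k7 (TAK1) and Tab3 were not called, with 95% intervals of -0.04 to 0.24 and -0.19 to 0.22.

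Of all genes tested, 6071 were called (49.5% of those tested), 3018 positive (24.6%) and 3053 negative (24.9%). With library totals as the only scaling, the median interaction of all genes moved to -0.16 and the split became 2020 positive and 4507 negative, or 30.9% positive in place of 49.7%. Directions below are therefore relative to the typical gene. Interactions of at least 2-fold were called in 753 positive (6.14%) and 683 negative genes (5.57%), and of at least 4-fold in 279 (2.28%) and 102 (0.832%), so the largest values were mostly positive. The WT response was called for 63.5% of genes, the KO response for 28.9%, and KO against WT for 11.4% under PBS and 64.8% under ADP-Hep. For 4891 called genes (80.6%) the genotypes differed under ADP-Hep and not under PBS by the same test, and for 821 (13.5%) they differed under both. A genotype difference under PBS was called for 15.8% of the genes with a called interaction and for 7.06% of the others. The same PBS libraries enter both calls, so these shares are not independent, and part of their difference is built in.

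Called genes were placed by which of the 2 responses passed the test and by their signs. In 1818 positive and 1804 negative genes only the WT response was called, and in a further 438 and 557 both were called in the same direction with the larger in WT cells. In 413 positive and 334 negative genes both were called in opposite directions, together 6.09% of all genes tested. Only the KO response was called in 224 and 230 genes, both in the same direction with the larger in KO cells in 49 and 23, and neither in 76 and 105. Placement by a threshold is a description, and the interaction is the tested quantity. Replicate 2 of the KO PBS group was the lowest of its 3 libraries for 33.2% of all genes, 57.1% of the opposite positive genes, 59.4% of the positive genes with a KO response only and 53.1% of the positive genes with the larger response in KO cells. Without that library the opposite, KO-only and larger-in-KO groups held 760, 429 and 78 genes in both directions together, without replicate 1 of that group 540, 316 and 58, and without replicate 3 557, 339 and 57.

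**Figure D1:**
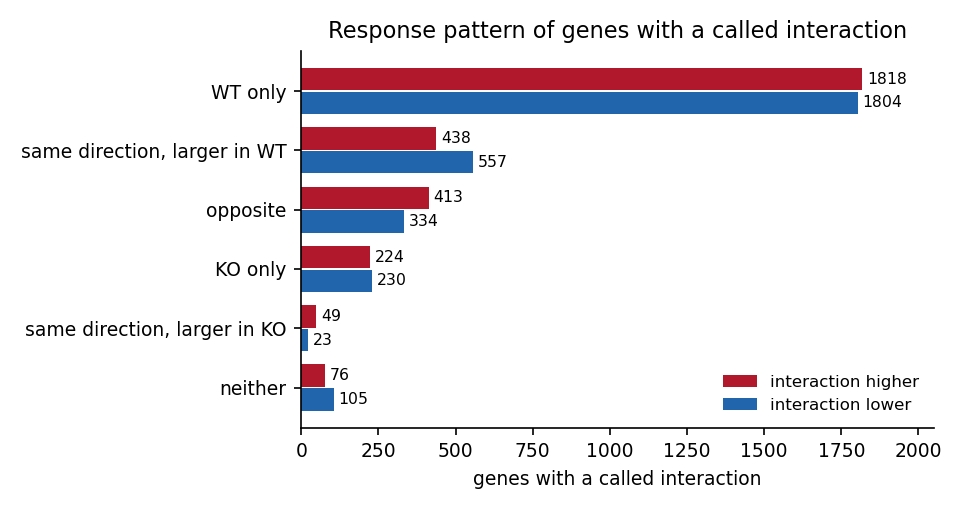
Number of genes with a called interaction in each response pattern; red bars are positive and blue bars negative interactions, and numbers stand at the bar ends. Genes with only a WT response called make up 1818 positive and 1804 negative genes, and 413 and 334 genes had called responses of opposite sign.

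**Figure D2:**
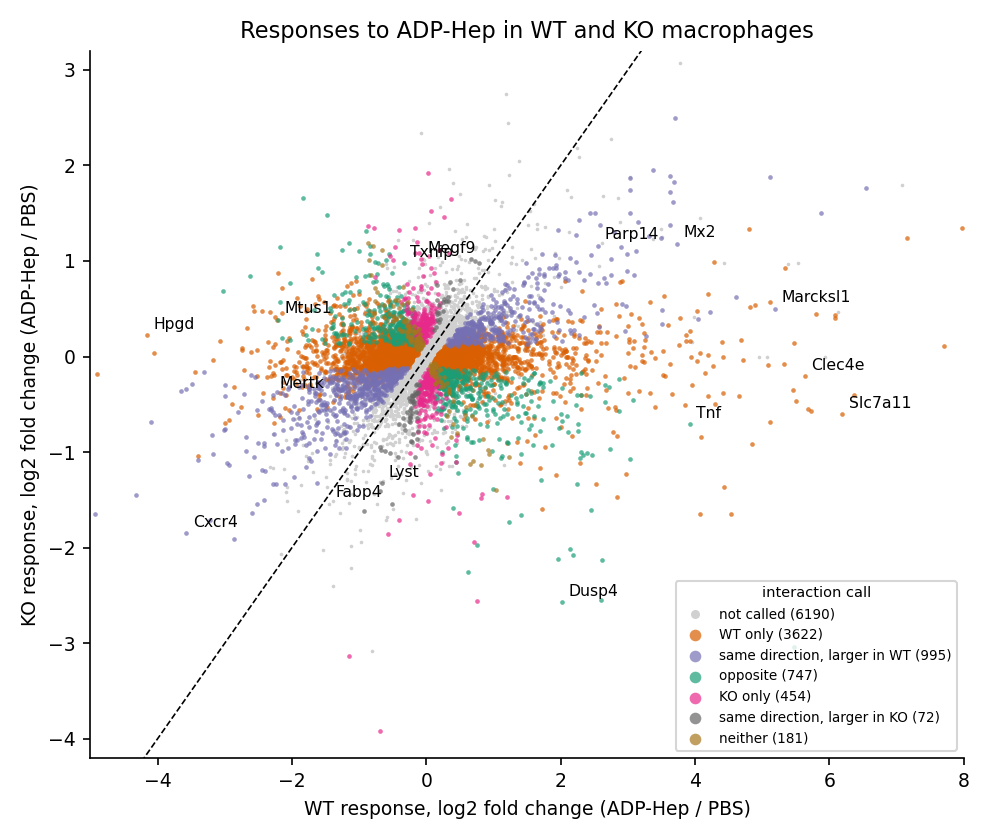
WT response against KO response (log2 fold change, ADP-Hep over PBS) of each of the 12261 tested genes, coloured by response pattern; the dashed line marks equal responses, and 8 genes lie outside the axes. Clec4e and Slc7a11 lie far right at KO responses of -0.20 and -0.60, Dusp4 lies right and low, Mx2 and Parp14 lie right of the line with both responses up, and Fabp4 lies close to the line.

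Inhibitors and subunits of NF-kB, the direct feedback genes of this pathway, had positive interactions in 18 of 20 tested members and negative in 0, with a median of 1.73. The counts of this and later lists stand beside 24.6% positive and 24.9% negative calls over all genes tested. Nfkbia, the inhibitor IκBα (chromosome 12), stood at 62.4, 62.1 and 59.9 CPM in WT PBS libraries and 458, 500.2 and 516 in WT ADP-Hep libraries. The KO libraries held 39.8, 41.2 and 44.6 CPM with PBS and 40.1, 42.3 and 46.2 with ADP-Hep, so the KO groups overlapped and the WT groups did not. The interaction was 2.97 ± 0.09 (adjusted p = 3.5e-19). Tnip3 and Nfkb2, an A20-binding inhibitor and the p100 subunit, had 3.15 ± 0.09 and 2.70 ± 0.09. Tnfaip2, a TNF-induced protein that is neither inhibitor nor subunit, had a KO response called downward. Its KO libraries fell from 294, 279 and 301 CPM to 172, 169.5 and 164 CPM while WT libraries rose from 264, 292 and 278 to 1156, 1196 and 1228, an interaction of 2.89 ± 0.07. Sdc4, a cell-surface heparan sulfate proteoglycan, had the same opposite pattern: 93.9, 97.1 and 88.4 CPM rose to 628, 691 and 728 in WT cells, and 69.9, 67.97 and 74.9 fell to 46.04, 49.9 and 47.4 in KO cells. Its interaction of 3.45 ± 0.08 was estimated closely (95% interval 3.28 to 3.62).

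The promoter windows of 3 such genes are shown because they carry a match to the NF-kB consensus, searched on both strands. They are the 250 bases before the RefSeq transcript start on GRCm38.p6, written 5′ to 3′ on the gene's strand with the match in capitals: Nfkbia (chr12:55492648-55492897, minus strand), Cxcl2 (chr5:90903649-90903898, plus strand) and Sdc4 (chr2:164443189-164443438, minus strand). Counted back from the start, the matches begin at -29 in Nfkbia, at -97 and -96 (overlapping) in Cxcl2 and at -82 in Sdc4.
Nfkbia: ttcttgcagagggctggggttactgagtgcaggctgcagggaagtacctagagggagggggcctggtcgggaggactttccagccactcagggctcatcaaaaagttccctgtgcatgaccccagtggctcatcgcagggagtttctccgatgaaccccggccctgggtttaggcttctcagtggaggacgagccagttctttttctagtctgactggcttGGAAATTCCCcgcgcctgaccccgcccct
Cxcl2: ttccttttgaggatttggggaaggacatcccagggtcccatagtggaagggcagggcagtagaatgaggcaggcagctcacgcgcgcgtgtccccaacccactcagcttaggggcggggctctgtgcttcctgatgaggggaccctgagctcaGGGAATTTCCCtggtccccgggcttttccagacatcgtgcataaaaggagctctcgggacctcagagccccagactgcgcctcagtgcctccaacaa
Sdc4: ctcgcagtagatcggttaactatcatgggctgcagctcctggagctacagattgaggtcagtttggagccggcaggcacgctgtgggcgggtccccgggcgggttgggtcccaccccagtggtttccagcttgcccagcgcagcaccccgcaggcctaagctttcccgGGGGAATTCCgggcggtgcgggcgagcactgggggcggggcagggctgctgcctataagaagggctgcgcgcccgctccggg
Of the windows of 300 bases around the starts of tested genes, 10.3% held the consensus. The share was 59.1% over the NF-kB list (13 of 22 windows, since a gene can have more than 1 start), 33.3% over the chemokines and 31.2% over the cytokines. It was 14.9% over genes with a positive interaction of at least 2-fold, 19.0% at 4-fold, and 7.90% and 4.95% over negative genes at those sizes. A match is a run of letters, not a measured binding site, and RefSeq windows were found for 9522 of the tested genes (77.7%).

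Cytokines and chemokines had the largest median interactions of the 27 gene lists examined. Of 18 tested cytokine genes 17 were called positive and 0 negative (median 2.11), and of 21 chemokine genes 16 were called positive and 1 negative (median 3.04). Tnf rose from 11.7, 8.19 and 9.18 CPM to 139, 144 and 159 CPM in WT cells and fell from 6.79, 6.53 and 7.49 CPM to 4.20, 4.71 and 3.93 CPM in KO cells. No KO ADP-Hep library reached the lowest KO PBS library, and the interaction was 4.63 ± 0.18 (adjusted p = 1.6e-16). Il1b, which encodes the inflammasome substrate pro-IL-1β, was at 0.586, 0.285 and 0.340 CPM in WT PBS libraries and 83.4, 87.3 and 80.7 in WT ADP-Hep libraries. KO libraries were at 0.373, 0.180 and 1.37 CPM with PBS and 0.420, 0.628 and 0.896 with ADP-Hep, which overlapped, and the interaction was 7.59 ± 0.77. Il12b, which encodes a shared cytokine subunit, had 646 reads in the WT ADP-Hep libraries together, 0 over WT PBS, 3 over KO PBS and 1 over KO ADP-Hep. No fold is given for it, and without it the cytokine median was 2.02. Il1rn, the IL-1 receptor antagonist, had 2.02 ± 0.09, and Csf1, the macrophage growth factor, 2.19 ± 0.23.

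Among the chemokines, Cxcl2, a neutrophil attractant, was at 1.69, 1.35 and 1.70 CPM with PBS and 70.1, 73.2 and 75.1 with ADP-Hep in WT cells. It was at 1.64, 0.719 and 1.29 with PBS and 0.756, 1.10 and 0.797 with ADP-Hep in KO cells, which overlapped, and its interaction was 5.97 ± 0.36 (adjusted p = 6.1e-13). Ccl3 was of the opposite type, with 19.7, 18.8 and 22.1 CPM rising to 98.7, 100.2 and 103 in WT cells and 23.9, 20.6 and 24.6 falling to 11.97, 10.8 and 11.3 in KO cells, an interaction of 3.30 ± 0.11. Ccl9, abundant in all groups, had 1.86 ± 0.07, and the scavenger-receptor chemokine Cxcl16 had 1.34 ± 0.06. Cxcl10, the interferon-inducible ligand of CXCR3, rose in both genotypes: from 5.14, 2.78 and 4.29 to 347, 436 and 373 CPM in WT cells and from 1.94, 1.86 and 3.14 to 9.83, 7.54 and 5.33 CPM in KO cells. The responses differed by 4.78 ± 0.59. The negative chemokine was Cxcl14, chosen after its value was seen, at -0.24 ± 0.10, and DESeq2 and limma-voom called 0. Its call also ended without any of WT PBS replicates 1 and 2, WT ADP-Hep replicates 1 and 3, KO PBS replicates 2 and 3 and KO ADP-Hep replicates 1 and 3.

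Receptors and enzymes of the inflammatory programme also had positive interactions. Clec4e (Mincle, a lectin receptor for mycobacterial glycolipids; chr6:123281789-123289870, minus strand) had one of the most closely estimated large interactions, 5.83 ± 0.13 (adjusted p = 1.2e-19). Its WT libraries went from 19.2, 20.2 and 19.2 CPM to 966, 969.7 and 959.8 CPM, and its KO libraries from 16.3, 11.7 and 17.6 to 13.5, 12.6 and 12.9. Acod1, which makes itaconate, went from 49.2, 36.1 and 36.997 to 2699, 2817 and 2786 CPM in WT cells and from 19.3, 18.1 and 23.1 to 29.1, 27.4 and 22.9 in KO cells, an interaction of 5.69 ± 0.19. Acod1 was also lower in KO cells with PBS (-1.02, KO minus WT, log2). Of 31 tested pattern recognition receptors and adaptors 18 were called positive and 8 negative (median 0.33), with Tlr2 at 2.26 ± 0.07 and the kinases Irak3 and Irak2 at 1.87 ± 0.07 and 1.72 ± 0.08. Of 19 effector enzymes 13 were positive and 4 negative (median 1.66). Sod2, the mitochondrial superoxide dismutase, had 3.06 ± 0.07, Cybb, the catalytic subunit of the phagocyte NADPH oxidase, 1.35 ± 0.06, and the prostaglandin synthase Ptges 2.49 ± 0.20. Ptgs2 (COX-2) had 8.51 ± 0.96, with KO PBS libraries spread over 2.91, 0.659 and 4.997 CPM. Leaving out KO PBS libraries in turn gave Ptgs2 values from 7.84 to 9.06.

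Saa3, an acute-phase protein, differed between the genotypes already with PBS. Its KO libraries held 50.6, 48.4 and 58.2 CPM with PBS and 58.9, 56.6 and 60.4 with ADP-Hep, above the WT PBS level of 16.3, 18.2 and 16.4. WT ADP-Hep libraries reached 407, 422 and 470.4 CPM, and the interaction of 4.51 ± 0.10 holds both the ADP-Hep difference (-2.88, KO minus WT) and the PBS difference (1.63). Hpgd, which inactivates prostaglandins, had the strongest negative value of the list, -4.38 ± 0.32. WT cells fell from 7.75, 7.19 and 9.68 CPM to 0.489, 0.401 and 0.518 CPM, and KO libraries overlapped at 5.59, 5.63 and 7.33 with PBS and 7.31, 4.87 and 8.76 with ADP-Hep. In the inflammasome and cell death list 13 of 23 were positive and 6 negative (median 0.50), with Nlrp3 (3.16 ± 0.08), the pyrin gene Mefv (3.71 ± 0.23), the lipopolysaccharide sensor Casp4 (2.44 ± 0.13) and the caspase-8 inhibitor Cflar (1.75 ± 0.06). Marcksl1, an actin-associated MARCKS relative, rose in both genotypes, from 24.4, 22.9 and 21.6 to 795, 891 and 827 CPM in WT cells and from 20.4, 17.6 and 20.2 to 26.1, 27.4 and 28.6 in KO cells. Its KO libraries did not overlap between treatments either, and the responses differed by 4.70 ± 0.10.

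**Figure D3:**
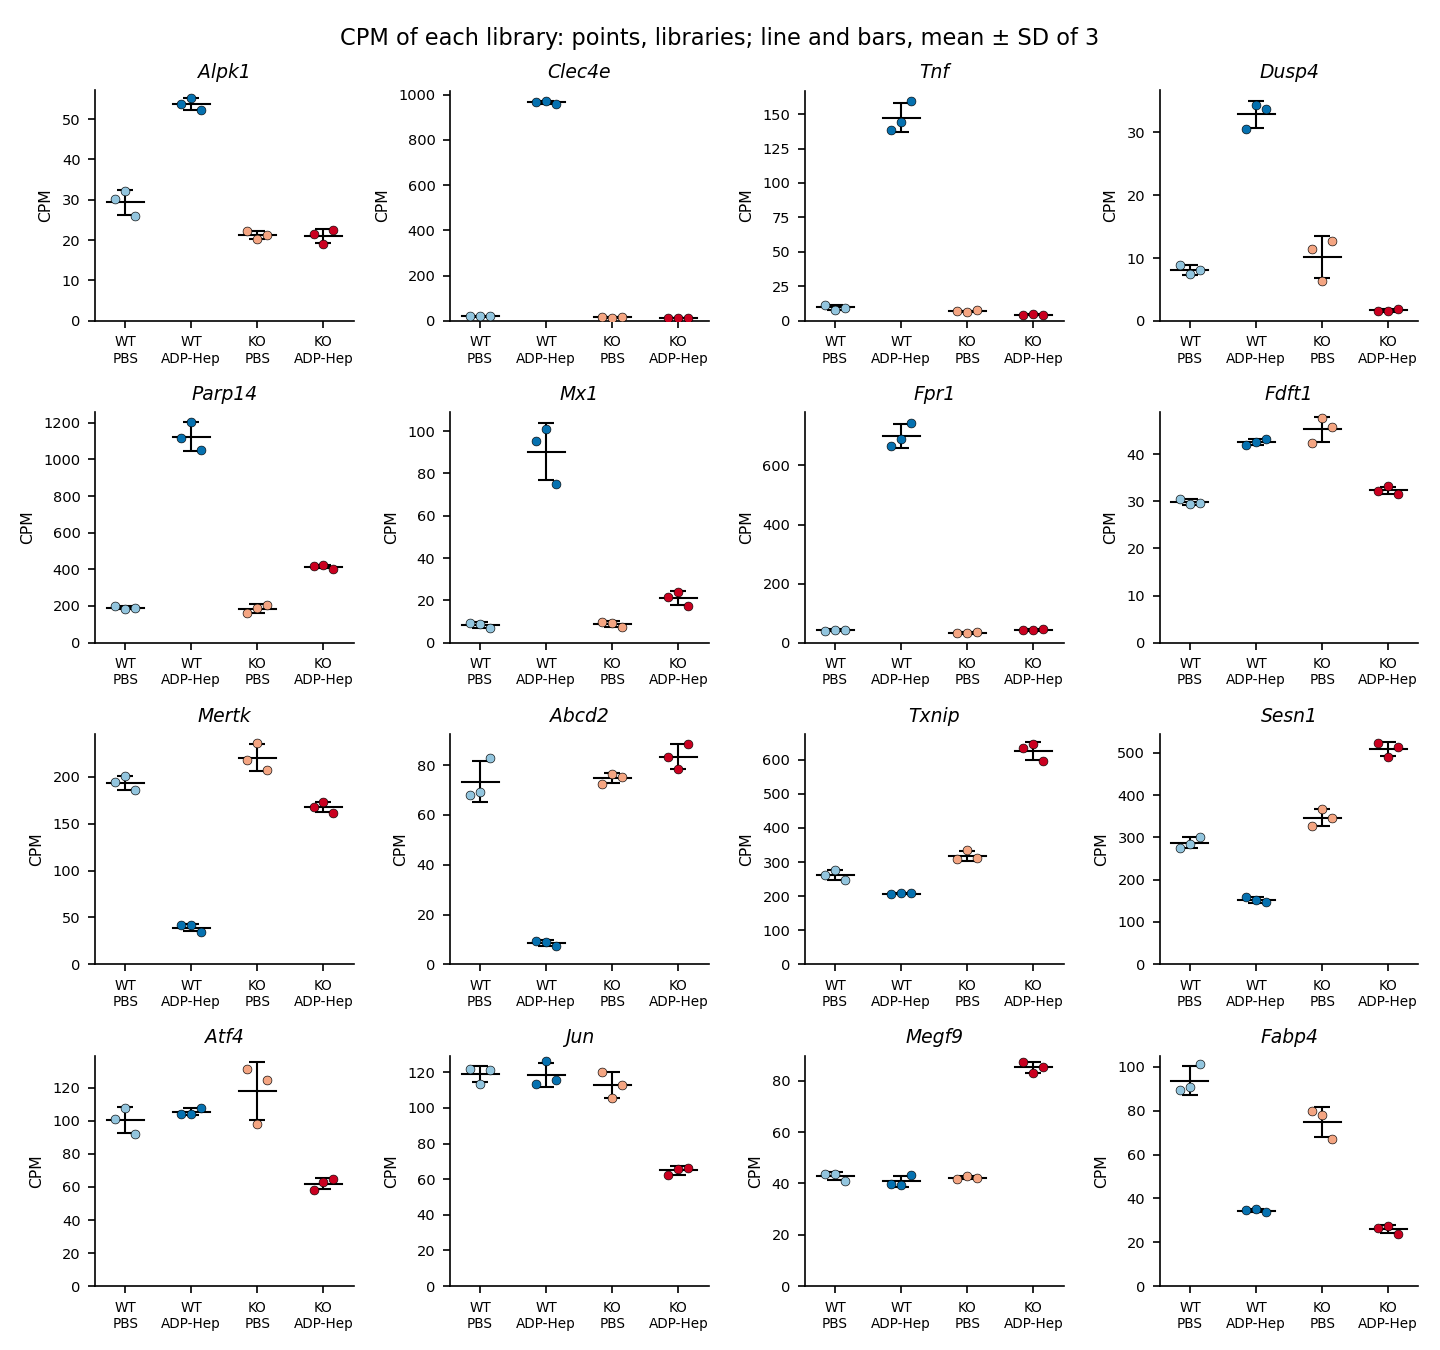
CPM of 16 genes in each of the 12 libraries (points), with the group mean and SD over 3 libraries (line and bars); every vertical axis starts at 0. Clec4e and Tnf are high in the WT ADP-Hep libraries only, Dusp4 is raised in WT and lowered in KO cells, Parp14 and Mx1 are raised in both genotypes and more in WT cells, and for Atf4, Jun and Megf9 only the KO response was called.

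Immediate-early and AP-1 genes, the short-lived transcription factors and phosphatases that follow MAP kinase activity, were mostly positive. Of 34 tested members 21 were positive and 4 negative (median 0.74), and 8 called members rose in WT and fell in KO cells (23.5% with called responses of opposite sign, against 6.09% of all genes tested). Other lists had similar or larger shares, among them NF-kB (30%), cholesterol (29.2%), inflammasome and cell death (21.7%) and effector enzymes (21.1%). The lists of antiviral effectors, GTPases and interferon signalling had 0%. Dusp4, a MAP kinase phosphatase, rose from 8.86, 7.41 and 8.03 to 30.5, 34.4 and 33.8 CPM in WT cells. In KO cells it fell from 11.5, 6.35 and 12.7 to 1.51, 1.57 and 1.89 CPM. The KO response was -2.57 and the WT response 2.02, the groups did not overlap within either genotype, and the interaction was 4.59 ± 0.29 (adjusted p = 2.7e-09). Dusp1 had 3.70 ± 0.22, Dusp16 2.97 ± 0.17, and Egr2, a zinc-finger factor at low levels, 2.73 ± 0.33. KO PBS replicate 2 was the lowest of its group for 47.1% of this list and for these 3 phosphatases, and without it the values were 4.87 for Dusp4, 3.92 for Dusp1 and 3.16 for Dusp16. Ets2, a transcription factor, went from 39.1, 44.8 and 40.6 to 341, 355 and 354 CPM in WT cells and from 35.6, 30.4 and 42.6 to 24.7, 26.4 and 27.7 in KO cells, an interaction of 3.53 ± 0.12. Fos and Junb belonged to the WT-only genes, with 2.60 ± 0.12 and 2.07 ± 0.08. The AP-1 site TGANTCA, on either strand, was in 5.12% of the windows of all tested genes and in 10.8% of those of positive genes of at least 4-fold. Over all positive genes the share was 5.94%. It was 5.54% over those with a WT response only, 5.11% with opposite responses and 3.43% with a KO response only. Over positive genes in which both responses were called upward with the larger in WT cells it was 9.66%. Zfp36l2, an RNA-binding protein that promotes mRNA decay, was negative at -1.13 ± 0.06.

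Jun itself showed a response in KO cells only. It was at 122, 114 and 121 CPM with PBS and 114, 126 and 116 with ADP-Hep in WT cells, overlapping, and at 120.1, 105 and 113 with PBS and 62.3, 65.9 and 66.5 with ADP-Hep in KO cells, without overlap. The interaction was 0.79 ± 0.08 (adjusted p = 5.7e-09). Atf4, the translation-controlled factor of amino acid and stress responses, had the same shape, with 101, 108 and 92.005 CPM with PBS and 104, 104 and 108 with ADP-Hep in WT cells. Its KO PBS libraries held 131, 98.2 and 125 CPM and its KO ADP-Hep libraries 58.2, 62.8 and 65.02, an interaction of 1.00 ± 0.12. Of 31 tested ATF4 and unfolded protein response genes 16 were positive and 4 negative (median 0.42). Of these called members 5 had a KO response only, against 454 of the 6071 called genes. The negative count was 2 without WT PBS replicate 3 or WT ADP-Hep replicate 2. Slc7a11, the cystine importer xCT, had the largest value of the list, 6.80 ± 0.34, from 7.62, 6.91 and 8.92 CPM in WT PBS to 559.7, 585 and 607 in WT ADP-Hep libraries, with KO libraries at 24.2, 11.3 and 21.5 with PBS and 11.4, 13.5 and 12.2 with ADP-Hep. Ppp1r15a (GADD34), which reverses the translation block, had 3.07 ± 0.27, and the transcription factor Cebpb, the endoplasmic reticulum protein Herpud1 and the folate enzyme Mthfd2 had 1.94 ± 0.09, 1.11 ± 0.08 and 1.34 ± 0.11.

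In most interferon-stimulated genes the KO response was called too, in the same direction and smaller. Of 42 tested IFIT, OAS and antiviral effector genes 37 were called positive and 0 negative, with a median interaction of 0.88 from a median WT response of 1.57 and a median KO response of 0.78. In 34 of the 37 both responses were called upward with the larger in WT cells, and in the other 3 (Oas1g, Bst2 and Ifitm3) only the WT response was called. Over all genes with a positive interaction these shares were 14.5% for both upward with the larger in WT cells and 60.2% for the WT response only. Parp14, an ADP-ribosyltransferase (chr16:35832874-35871544, minus strand), rose from 199, 182 and 189.6 to 1117, 1206 and 1049.7 CPM in WT cells and from 162, 187 and 207 to 418, 424 and 404 in KO cells. No libraries overlapped between treatments in either genotype, and the interaction was 1.40 ± 0.10 (adjusted p = 4.7e-10). The dynamin-like GTPase Mx1 rose from 9.18, 8.83 and 6.80 to 95.4, 101 and 74.9 CPM in WT and from 9.77, 9.35 and 7.17 to 21.6, 24.1 and 17.5 in KO cells, with 2.26 ± 0.27. Slfn8 and Tor3a had 1.05 ± 0.11 and 1.27 ± 0.10, Mx2 had 2.55 ± 0.35, Ifit1 2.05 ± 0.29, the radical-SAM enzyme Rsad2 2.05 ± 0.28 and the ubiquitin-like Isg15 1.91 ± 0.27.

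The RNA sensor Ifih1 (MDA5) had a smaller interaction, 0.78 ± 0.09. In the effector list 5 members were not called: Dhx58 (0.05 to 0.70), Oas3 (0.05 to 0.82), Isg20 (-0.14 to 1.30), Sp100 (-0.10 to 0.21) and Ifi27l2a (-0.19 to 0.23), as 95% intervals. These intervals are not adjusted for the number of genes tested, and those of Dhx58 and Oas3 were positive throughout. Dhx58 and Oas3 were called with DESeq2's Wald test, with limma-voom, without the filter or robust estimation, and without some single libraries. Ifi27l2a was higher in KO than WT cells under PBS, by 0.83. Of 13 tested guanylate-binding and immunity-related GTPases, which attack pathogen vacuoles, 8 were positive and 1 negative (median 0.95). Gbp3, Igtp and Irgm2 had 1.12 ± 0.15, 0.97 ± 0.11 and 0.85 ± 0.11. Gbp2 rose from 13.6, 14.7 and 13.5 to 112, 132 and 111 CPM in WT and from 13.3, 14.6 and 14.5 to 27.8, 24.8 and 23.7 CPM in KO cells, with 2.24 ± 0.12. The negative member was Gbp9 at -0.43 ± 0.14, which rose more in KO cells (11.4, 13.3 and 11.9 to 22.9, 21.996 and 18.5 CPM) than in WT cells (10.5, 10.1 and 11.3 to 14.1, 13.8 and 12.6 CPM). Gbp4, Gbp7, Gbp8 and Iigp1 were not called. Near-identical copies such as Ifit3 and Ifit3b, the Oas1 genes and the Gbp cluster can share reads, so the split between them is uncertain.

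**Figure D4:**
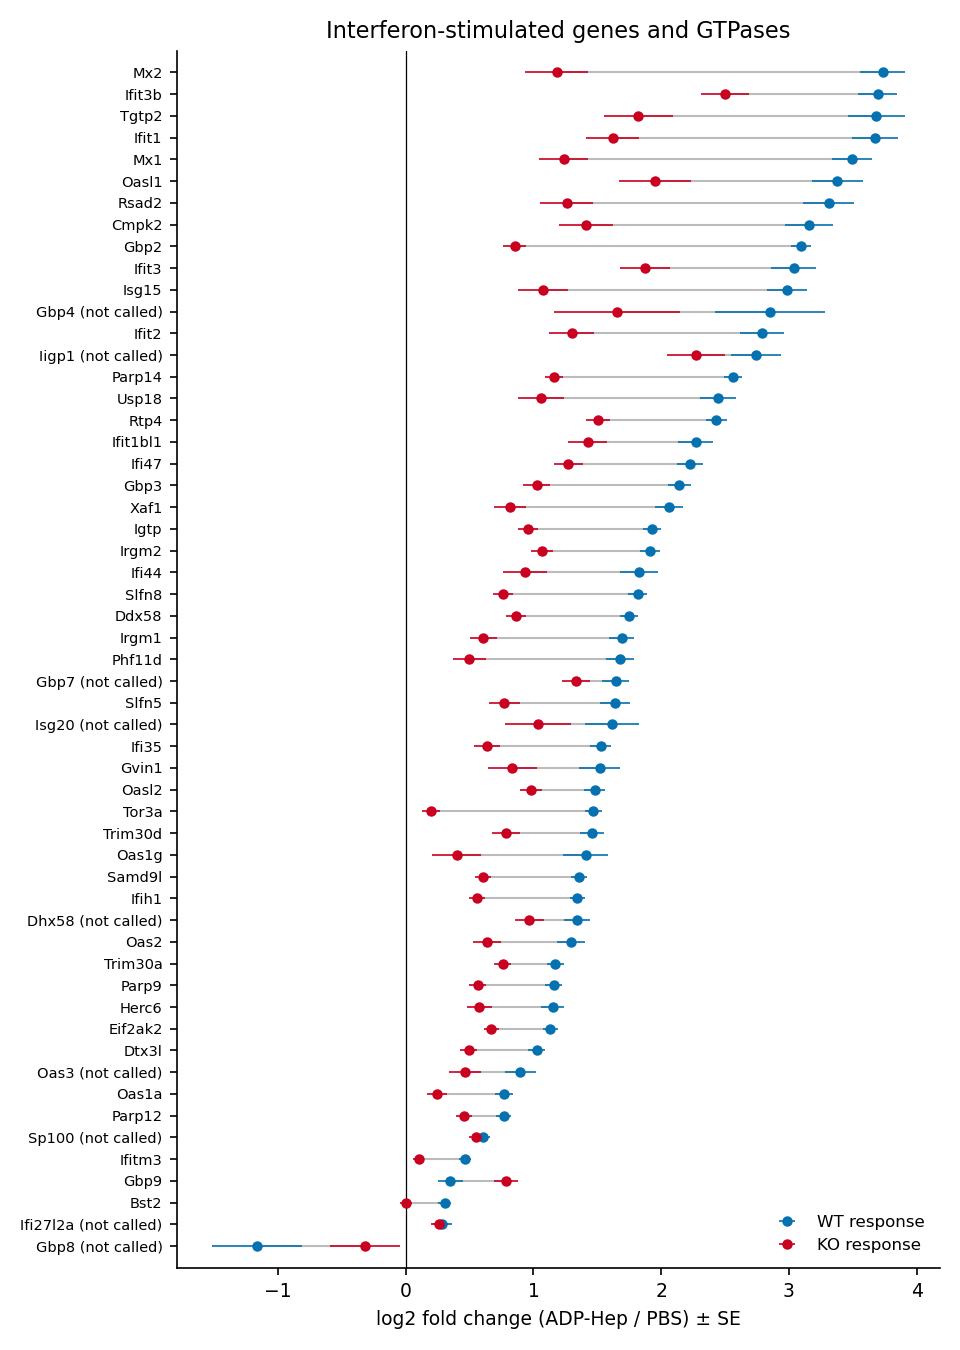
WT (blue) and KO (red) responses, as log2 fold change ± SE, of the 55 tested interferon-stimulated genes and GTPases, ordered by the WT response; grey lines join the 2 responses of a gene. The blue point lies right of the red point for all 42 effector genes, by 2.55 for Mx2 and by 0.02 for Ifi27l2a, and left of it for Gbp9 and Gbp8.

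In the interferon signalling list 16 of 22 were positive and 1 negative (median 0.50). Irf7 and Irf1, factors that drive these genes, had 1.24 ± 0.22 and 1.30 ± 0.10, the kinase Jak2 1.37 ± 0.08 and the receptor chain Ifnar1 0.89 ± 0.07. Socs3, a feedback inhibitor of cytokine receptors, had 5.41 ± 0.33, from 4.04, 3.06 and 2.93 to 120.3, 133 and 144 CPM in WT cells against 1.72, 1.74 and 3.30 with PBS and 1.97, 2.44 and 1.94 with ADP-Hep in KO cells. Irf8, a lineage factor of macrophages, was the negative member at -0.80 ± 0.07. The promoter windows of Ifit1 (chr19:34640639-34640888, plus strand) and Gbp2 (chr3:142620413-142620662, plus strand) are shown for the core of the interferon-stimulated response element, GAAA and GAAA with any 2 bases between them, searched on both strands. Capitals mark the matches, here in the reverse sense, beginning at -104 and -85 in Ifit1 and at -59 in Gbp2.
Ifit1: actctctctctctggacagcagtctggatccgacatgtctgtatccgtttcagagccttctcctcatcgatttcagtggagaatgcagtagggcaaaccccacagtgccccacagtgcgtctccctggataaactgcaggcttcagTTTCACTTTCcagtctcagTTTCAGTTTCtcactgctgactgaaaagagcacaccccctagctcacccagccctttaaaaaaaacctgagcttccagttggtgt
Gbp2: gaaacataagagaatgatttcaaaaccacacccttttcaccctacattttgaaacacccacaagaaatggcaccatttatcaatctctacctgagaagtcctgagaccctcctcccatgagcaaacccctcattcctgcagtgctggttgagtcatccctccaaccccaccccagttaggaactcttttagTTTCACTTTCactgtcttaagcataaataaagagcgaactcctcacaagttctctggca
Those letters were in 3.25% of the windows of all tested genes. They were in 53.8% of windows over the effector list (21 of 39), 77.8% over the GTPases (7 of 9), and 12.2% over all positive genes in which both responses went the same way with the larger in WT cells. Over positive genes with a WT response only the share was 2.90%, and over positive genes of the opposite pattern 1.56%.

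MHC class I processing genes were positive in 15 of 19 tested and negative in 0 (median 0.35), with Psme2 at 1.10 ± 0.06, the peptide-loading protein Tapbp at 0.54 ± 0.06 and H2-K1 at 0.76 ± 0.07. H2-K1, H2-Q4 and H2-K2 are close copies and reads may be split among them. Of 15 class II and co-stimulation genes 7 were positive and 4 negative (median 0.55). Cd40 rose from 2.73, 2.78 and 2.17 to 59.01, 64.96 and 58.98 CPM in WT cells and from 1.34, 2.04 and 1.21 to 2.56, 2.83 and 1.99 in KO cells, with 3.99 ± 0.29. Cd274 (PD-L1) was of the opposite type, 42.8, 40.4 and 37.3 to 131, 137 and 131 CPM in WT and 47.3, 40.6 and 42.6 to 27.4, 29.5 and 26.5 in KO cells, with 2.39 ± 0.09. Icosl, the ligand of the T-cell co-receptor ICOS, had 2.43 ± 0.12, from 10.03, 12.1 and 12.3 to 87.2, 88.1 and 96.8 CPM in WT and from 11.6, 11.4 and 12.2 to 17.3, 18.1 and 15.7 in KO cells. The invariant chain Cd74 had 0.89 ± 0.19, whereas H2-DMa, which loads class II molecules, had -0.59 ± 0.17.

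Cholesterol synthesis and uptake genes, targets of SREBP, had positive interactions in 17 of 24 tested and negative in 2 (median 0.54), with 1 negative without WT PBS replicate 2 or WT ADP-Hep replicate 1, and a median WT response of 0.23 and a median KO response of -0.20. Fdft1, the squalene-forming enzyme, rose from 30.5, 29.4 and 29.7 to 41.9, 42.7 and 43.3 CPM in WT cells and fell from 42.4, 47.8 and 45.8 to 32.1, 33.2 and 31.7 in KO cells, an interaction of 1.00 ± 0.08 (adjusted p = 2.0e-10). The sterol enzyme Hsd17b7 had only its WT response called, from 23.2, 26.3 and 24.8 to 72.3, 66.5 and 66.8 CPM, with KO libraries at 36.3, 35.003 and 36.8 CPM with PBS and 39.6, 39.6 and 40.3 with ADP-Hep, and an interaction of 1.33 ± 0.09. In the cholesterol list the genotypes already differed under PBS in 18 of 24 genes, with a median of 0.37 higher in KO cells. Of all genes tested 11.4% differed under PBS, and their median was 0.0013. Fdft1 and Hsd17b7 differed by 0.60 and 0.54. For Insig1, the SREBP inhibitor, the PBS difference of 0.61 stood beside an interaction of 0.64 ± 0.07, and the genotypes overlapped with ADP-Hep (66.2, 64.6 and 65.8 CPM in WT and 63.01, 65.8 and 64.9 in KO cells).

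Lipid efflux and lysosomal genes had interactions in both directions. Of 23 LXR targets and lipid handling genes 6 were positive and 9 negative, 65.2% called against 49.5% of all genes tested. Their median was 0.0033, near the -0.0099 of all genes. Nr1h3 (LXRα) had 2.46 ± 0.14 and the cholesterol exporter Abca1 1.12 ± 0.07, whereas Apoe had -0.80 ± 0.06, the exporter Abcg1 -0.81 ± 0.11 and the esterifying enzyme Soat1 -0.65 ± 0.06. Of 37 lysosome and V-ATPase genes 6 were positive and 14 negative (median -0.097), 54.1% called against 49.5% of all genes tested. With library totals as the only scaling the LXR list had 3 positive and 11 negative and the lysosome list 5 and 26. The nutrient-signalling genes Rragd and Flcn fell in both genotypes and more in WT cells, with -1.34 ± 0.08 and -0.81 ± 0.08. Fnip2, a folliculin partner, fell from 915, 907 and 885 to 161, 154 and 157 CPM in WT and from 847, 889 and 850.0 to 285, 313 and 289 in KO cells, with -0.98 ± 0.06. Mitf, a factor of lysosomal genes, was positive at 0.79 ± 0.07.

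Redox and glycolytic genes were mostly positive. Of 23 NRF2 targets and glutathione genes 15 were positive and 1 negative (median 0.61, KO PBS replicate 2 the lowest of its 3 for 60.9% of members). The negative NRF2 count was 3 without that library, 2 without the unnumbered KO ADP-Hep library and 3 with library totals as the only scaling. Of 24 tested glycolysis and HIF-1 genes 16 were positive and 1 negative (median 0.41). Sqstm1, the autophagy receptor p62, rose from 607, 632 and 615 to 1663, 1718 and 1965 CPM in WT cells and fell from 748, 638 and 773 to 422, 423 and 429 in KO cells, with 2.29 ± 0.09. Nfe2l2 (NRF2) had 1.51 ± 0.07 and glutathione reductase Gsr 1.33 ± 0.11, while the iron exporter Slc40a1 had -1.08 ± 0.09. The glucose transporter Slc2a1 had 2.70 ± 0.19, the lactate exporter Slc16a3 1.55 ± 0.16 and Hif1a 1.40 ± 0.08. Among nuclear-encoded respiratory chain genes, cytochrome c (Cycs) had 0.97 ± 0.11 and Sdhb -0.24 ± 0.06. The 29 tested had 3 positive and 2 negative calls (17.2% called against 49.5% of all genes tested, median 0.0023). With library totals as the only scaling these were 1 and 14, and without WT PBS replicate 3 they were 6 and 1. The negative count was also 1 without WT PBS replicate 2, WT ADP-Hep replicates 1 or 2, KO PBS replicates 1 or 3 or the unnumbered KO ADP-Hep library. Of 7 tested mitochondrially encoded mRNAs edgeR, DESeq2 and limma-voom each called 0, and 0 had an unadjusted p under 0.05. The interval of mt-Co1 was wide, -0.84 to 1.08, with KO PBS libraries at 1657, 3797 and 3191 CPM.

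DNA replication genes had negative interactions in 28 of 35 tested and positive in 0 (median -0.49). Cdt1, which loads the replicative helicase, was at 38.6, 39.9 and 37.3 CPM with PBS and 10.4, 10.03 and 10.7 with ADP-Hep in WT cells and at 46.6, 44.2 and 46.5 with PBS and 27.4, 29.3 and 30.97 with ADP-Hep in KO cells. All WT ADP-Hep libraries lay below all KO ADP-Hep libraries, and the interaction was -1.25 ± 0.10 (adjusted p = 4.7e-11). The helicase subunit Mcm7 fell from 58.4, 55.1 and 51.1 to 31.3, 31.6 and 27.7 CPM in WT cells, and its KO libraries overlapped at 56.5, 57.7 and 56.8 with PBS and 58.6, 57.2 and 62.3 with ADP-Hep, with -0.90 ± 0.09. The factors E2f2 and E2f8 had -1.15 ± 0.09 and -1.11 ± 0.11. Mitosis and G2 genes moved less, with 13 of 26 negative and 0 positive (median -0.16), led by the kinesin Kif23 (-0.60 ± 0.08), the checkpoint kinase Bub1b (-0.51 ± 0.07), Aurkb (-0.49 ± 0.08) and Kif11 (-0.46 ± 0.07). The Mcm7 promoter window (chr5:138171884-138172133, minus strand) is shown for TTTCCCGC, a core of E2F sites, whose match begins at -165 and is printed in the reverse sense.
Mcm7: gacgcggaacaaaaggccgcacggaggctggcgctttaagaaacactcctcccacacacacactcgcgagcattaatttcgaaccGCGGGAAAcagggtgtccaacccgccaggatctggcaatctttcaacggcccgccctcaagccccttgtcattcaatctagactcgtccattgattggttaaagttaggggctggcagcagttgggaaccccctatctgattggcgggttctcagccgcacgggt
The letters TTTCCCGC or TTTGGCGC, on either strand, were in 31.4% of the windows of the replication list (11 of 35) and in 2.95% of those of all tested genes. Over all negative genes the share was 3.68%, and over those of at least 2-fold 1.98%. Over positive genes it was 2.13%, and 1.19% at that size. For the counts of 0 above, DESeq2 and limma-voom also called 0 in that direction, and at an unadjusted p under 0.05 edgeR gave 0 in each of these lists except 1 positive gene in the mitosis list, which had 1 positive call without WT ADP-Hep replicate 2, KO PBS replicate 1 or KO ADP-Hep replicate 1.

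Receptors and regulators of resting macrophages were divided. Of 32 tested, 10 were positive and 13 negative (median -0.16), or 7 and 17 with library totals as the only scaling. The share called was 71.9% against 49.5% of all genes tested. Mertk, the receptor for the uptake of dying cells, fell from 194, 201 and 186 to 41.6, 41.7 and 34.5 CPM in WT cells and from 218, 236 and 208 to 168, 173 and 162 in KO cells, with -1.89 ± 0.08 (adjusted p = 2.3e-15). Its ligand Gas6 had -1.05 ± 0.06. The lineage factor Cebpa had -1.41 ± 0.11, and the lectin Clec10a -1.59 ± 0.20. Positive members were the inhibitory Fc receptor Fcgr2b (1.78 ± 0.07), Cebpd (2.60 ± 0.11) and the scavenger receptor Marco, which went from 919, 935 and 949 to 2535, 2611 and 2743 CPM in WT cells (1.36 ± 0.06). Genes outside the list that fell in WT cells and were chosen by the naming rule included the following. Abcd2, a peroxisomal fatty acid transporter, fell from 67.8, 69.2 and 82.7 to 9.41, 8.83 and 7.43 CPM in WT cells against 72.6, 76.4 and 75.1 with PBS and 83.3, 78.4 and 88.4 with ADP-Hep in KO cells, with -3.23 ± 0.11. The ubiquitin ligase Rnf144b fell in both genotypes, from 55.7, 56.5 and 56.9 to 4.69, 5.31 and 3.80 CPM in WT and from 43.5, 48.1 and 39.7 to 34.3, 32.6 and 36.8 in KO cells, with -3.23 ± 0.12. Enc1, a kelch protein, had -2.59 ± 0.09, and Rnf150, a ubiquitin ligase, -2.34 ± 0.07. Sox4, a transcription factor counted here among progenitor markers, fell from 19.3, 18.4 and 18.4 to 1.92, 1.52 and 1.38 CPM in WT cells and from 15.4, 16.3 and 14.8 to 11.7, 13.3 and 13.6 in KO cells, with -3.21 ± 0.16. The other 4 progenitor markers summed to 3.74 to 4.15 CPM in WT PBS, 2.73 to 3.04 in WT ADP-Hep, 2.55 to 4.42 in KO PBS and 2.75 to 3.22 in KO ADP-Hep libraries.

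Of 31 tested chemokine and metabolite receptors 14 were positive and 13 negative (median -0.040), with large values on both sides. The formyl peptide receptor Fpr1 rose from 40.05, 43.8 and 43.8 to 666, 691 and 745 CPM in WT and from 31.4, 31.3 and 36.4 to 41.9, 41.2 and 46.5 in KO cells, with 3.64 ± 0.09, and Fpr2 had 3.76 ± 0.15. The metabolite receptors Gpr84 and Hcar2 had 4.31 ± 0.31 and 4.08 ± 0.40, the adenosine receptors Adora2a and Adora2b 6.30 ± 0.68 and 3.50 ± 0.36, and the complement receptor C5ar1 1.61 ± 0.07. The chemokine-binding receptor Ccrl2 rose from 12.7, 10.9 and 12.5 to 55.5, 61.9 and 60.1 CPM in WT and fell from 10.9, 11.2 and 8.62 to 5.33, 4.95 and 4.48 in KO cells, with 3.35 ± 0.15. On the negative side, Cxcr4 fell in both genotypes, from 114, 115 and 119 to 10.96, 7.76 and 11.1 CPM in WT and from 137, 119.6 and 145 to 33.2, 40.3 and 38.4 in KO cells, with -1.72 ± 0.15. Gpr34, a receptor for lysophosphatidylserine, had -2.97 ± 0.22, Cxcr3 -2.81 ± 0.19 and P2ry12 -1.66 ± 0.19. Ccr2, which draws monocytes to CCL2, fell from 32.1, 30.98 and 32.03 to 22.7, 23.6 and 17.3 CPM in WT and rose from 19.4, 20.98 and 22.1 to 35.3, 31.97 and 34.3 in KO cells, with -1.26 ± 0.12. Its PBS level was lower in KO cells (-0.61, KO minus WT, log2), and its KO ADP-Hep libraries lay 0.65 above the WT ADP-Hep libraries. Cx3cr1 rose in both genotypes and slightly more in KO cells (-0.28 ± 0.08), and its PBS level was lower in KO cells (-1.79, KO minus WT, log2).

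**Figure D5:**
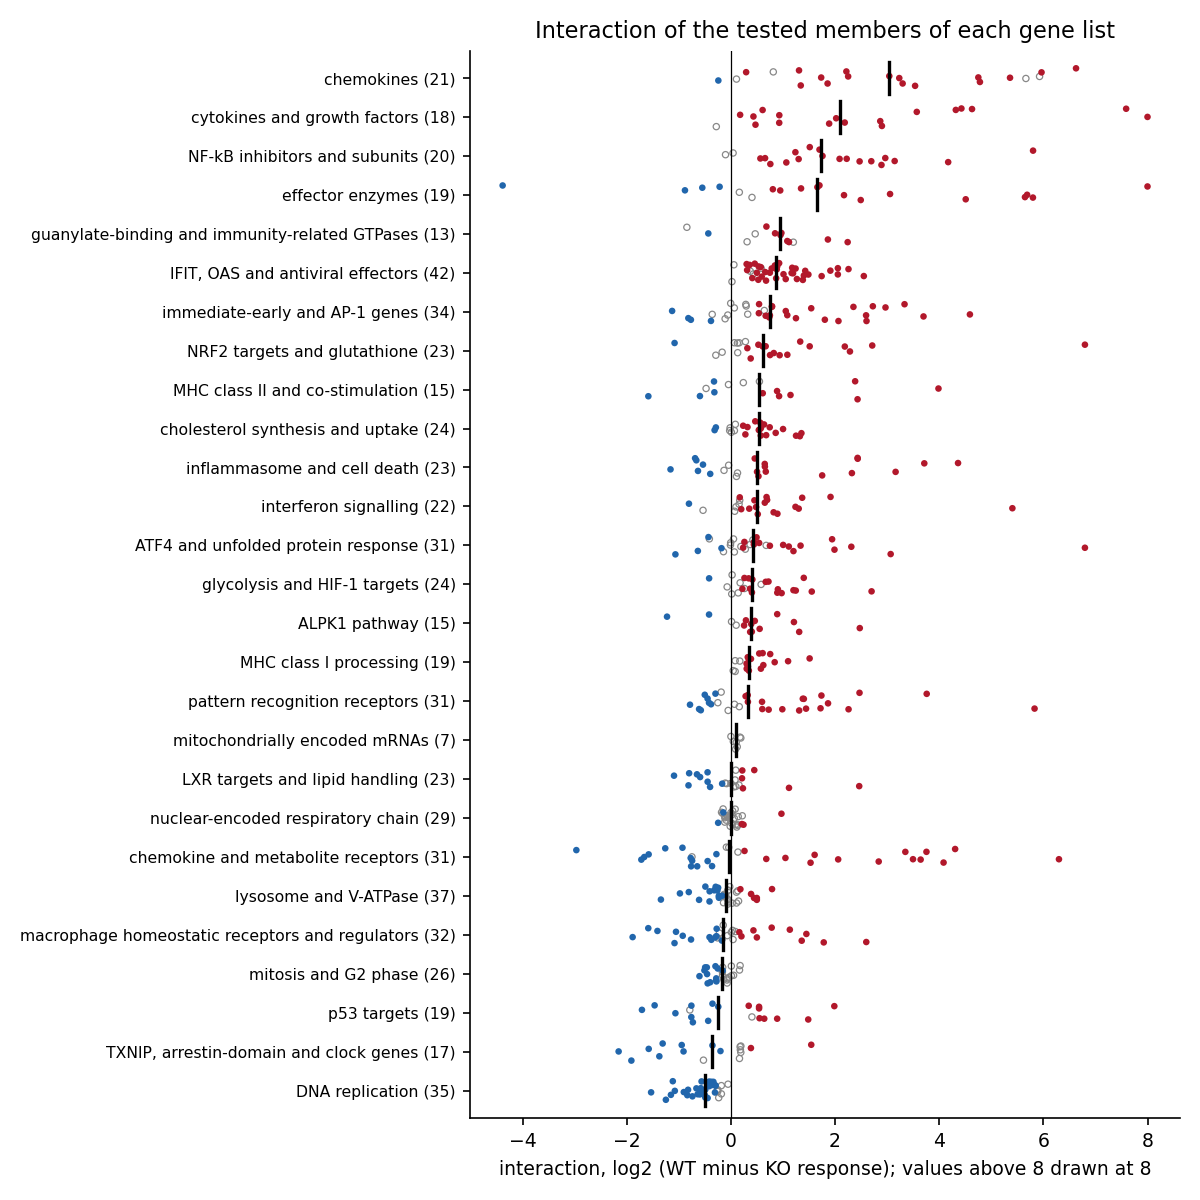
Interaction of each tested member of the 27 gene lists, red for called positive, blue for called negative and open grey for not called; black bars are list medians, numbers in brackets the members tested, and values above 8 are drawn at 8. Medians run from 3.04 for chemokines to -0.49 for DNA replication.

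Of the p53 targets 5, and of the TXNIP, arrestin-domain and clock genes 2, fell in WT cells and rose in KO cells. Of 19 p53 targets 8 were positive and 9 negative (median -0.24), and 9 had called responses of opposite sign, 4 of them upward in WT cells (47.4%, against 6.09% of all genes tested). KO PBS replicate 2 was the lowest of its 3 for 47.4% of members, and without it 8 were positive and 9 negative. Sesn1, a stress-induced inhibitor of mTORC1, fell from 275, 285 and 302 to 159.6, 152 and 146 CPM in WT cells and rose from 327, 367 and 346 to 522, 489.6 and 514 in KO cells, with -1.46 ± 0.07 (adjusted p = 6.6e-15). Trp53inp1 had -1.71 ± 0.08, Sesn2 -1.06 ± 0.11 and Zmat3 -0.76 ± 0.07. Other p53 targets went the opposite way: Mdm2 had 0.89 ± 0.13, Cdkn1a 0.54 ± 0.07 and Gadd45a 1.99 ± 0.21. Of 17 TXNIP, arrestin-domain and clock genes 2 were positive and 9 negative (median -0.35). Txnip, a thioredoxin-binding brake on glucose uptake, fell from 262, 275 and 246 to 206, 208 and 208 CPM in WT cells, while KO libraries rose from 308, 334 and 313 to 636, 648 and 597. The responses were -0.33 in WT and 0.98 in KO cells, and the interaction was -1.31 ± 0.07. Its relative Arrdc3 had -1.91 ± 0.13. The clock outputs Dbp, Tef, Per3 and Nr1d1 had -2.15 ± 0.18, -0.91 ± 0.08, -1.58 ± 0.16 and -1.37 ± 0.26, against 1.54 ± 0.17 for the repressor Cry1. Mtus1, a microtubule-associated protein outside these lists, had a called WT fall from 84.004, 81.8 and 86.1 to 19.7, 18.6 and 15.3 CPM and a called KO rise from 111, 105 and 104 to 139.6, 138 and 139.6, with -2.59 ± 0.08.

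A smaller set responded in KO cells only or more in KO cells. Megf9, a membrane protein with EGF-like repeats, was at 43.8, 43.7 and 41.03 CPM with PBS and 39.8, 39.3 and 43.4 with ADP-Hep in WT cells, which overlapped. It rose from 41.6, 42.7 and 42.1 to 87.3, 83.1 and 85.3 CPM in KO cells, with -1.09 ± 0.08 (adjusted p = 1.3e-11). The transcription factor Klf10 and the FERM-domain protein Frmd6 rose in the same way, with -0.77 ± 0.10 and -0.76 ± 0.12. The neutrophil granule gene Ltf was at 19.98, 19.1 and 19.3 CPM in KO PBS and 12.9, 11.7 and 12.4 in KO ADP-Hep libraries against 14.6, 17.02 and 16.4 with PBS and 18.01, 18.7 and 16.3 with ADP-Hep in WT cells, with 0.80 ± 0.12. The other 10 neutrophil markers summed to 222 to 257 CPM in KO PBS and 163 to 175 in KO ADP-Hep libraries, against 194 to 213 with PBS and 172 to 191 with ADP-Hep in WT cells. Lyst, a regulator of lysosome size, fell from 411, 388 and 377 to 261, 249 and 234 CPM in WT and from 416, 375 and 389 to 156, 159 and 156 in KO cells, with 0.67 ± 0.07. Gpr137b, a lysosomal membrane protein, had a small called fall in WT cells, at 103, 105 and 102 CPM with PBS and 95.3, 90.02 and 96.3 with ADP-Hep, and fell from 91.1, 93.6 and 91.1 to 48.02, 52.6 and 51.3 in KO cells, with 0.73 ± 0.07. The glycosyltransferase B4galt5 fell more in KO cells too, with 0.88 ± 0.07. The kinase Map3k5 (ASK1), Nfxl1 and Fkbp5, a co-chaperone of steroid receptors, rose more in KO cells, with -0.59 ± 0.10, -0.36 ± 0.08 and -0.34 ± 0.09. Slco4a1, an organic anion transporter, was called at 3.22 ± 1.13 (adjusted p = 0.044) on KO PBS libraries of 39.9, 10.4 and 50.4 CPM. Its call ended in 11 of the 12 fits that left out 1 library (adjusted p = 0.057 to 0.097), all but the one without KO PBS replicate 2 (3.9e-06), and without the count filter (0.084). Where neither response passed the test, the interactions were small or the counts low: Spen, a transcriptional co-repressor, was at 151, 145 and 122 CPM with PBS and 156, 164 and 177 with ADP-Hep in WT and 226, 169.8 and 211 with PBS and 161, 177 and 159.5 with ADP-Hep in KO cells, with 0.53 ± 0.15, and Dusp19 had -0.55 ± 0.16.

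Among genes with a large WT response, few responses were alike by the interval used here. Of 543 genes with both responses called in the same direction and a WT response of at least 2-fold, 16 had a 95% interval of the interaction within 1.5-fold. The 1 upward gene was Trim30c, at 4.10, 3.49 and 4.50 CPM with PBS and 9.66, 10.7 and 9.15 with ADP-Hep in WT cells and 3.73, 4.20 and 4.67 with PBS and 10.5, 8.41 and 8.56 with ADP-Hep in KO cells (interval -0.26 to 0.52). The other 15 fell in both genotypes. Fabp4, a fatty-acid binding protein, fell from 89.3, 90.9 and 101 to 34.6, 35.3 and 33.6 CPM in WT and from 79.8, 77.98 and 67.2 to 26.5, 27.3 and 23.9 in KO cells, and its interaction of 0.10 had an interval of -0.11 to 0.30. The clock-linked genes Cipc, Bhlhe40 and Bhlhe41 were also among them, with intervals of -0.46 to -0.14, -0.10 to 0.45 and -0.01 to 0.34. Of the 16, 6 (Cipc, Rell1, Ttyh2, Lrp12, Lpxn and Hmga2) lay inside the 1.5-fold bounds and were still called, with a somewhat larger WT fall, such as -0.41 for Ttyh2 and -0.24 for Lrp12. Of the 1663 genes with a called WT response of at least 2-fold, 1427 (85.8%) had a called interaction. Of the 229 genes with a called KO response of at least 2-fold, 142 had one. These sets were chosen by responses whose libraries also enter the interaction. Over all genes tested, 6190 had no called interaction, which does not show that their responses were alike.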

How the data were processed

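RNA of mouse bone-marrow-derived macrophages was sequenced in 12 libraries, 3 for each of WT and KO cells with PBS or ADP-Hep. The authors deposited 1 table of raw read counts (whole numbers per gene, without scaling). Their processing notes name STAR, featureCounts, RSEM, DESeq2, FastQC and Trim Galore, and the builds mm10 and hg38, per the submitters' processing notes with no versions. No source used here gives the step that made the counts or its strand setting, so how reads were divided among overlapping, antisense or near-identical genes is unknown. Below row 37643 the values of KO libraries were shifted by 1 row against the identifiers (r of WT with KO levels 0.996 above, 0.0420 below, 0.979 below after moving them up by 1). The 19206 rows from shortly before that point on were left out of 56748. Of the KO ADP-Hep columns, 1 carries a number that matches no label and was kept in its group unnumbered. Of the identifiers used 37490 are in GENCODE vM21 of mm10, the source of the gene coordinates.

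In R 4.3.3, edgeR 4.0.16 scaled the counts by TMM over these rows, kept 12261 genes by filterByExpr and fitted 1 robust quasi-likelihood model of the 4 group means. The biological coefficient of variation was 4.81%. The standard error is the absolute log2 value divided by the square root of F. Levels are TMM-scaled CPM, not divided by gene length, and are compared within a gene only. No 2 libraries of a group matched within sampling noise (chi-square over its degrees of freedom, 1.93 to 10.1). The model was tested on simulated counts with known differences. At 1.2-fold 12 of 50 changed genes were recovered, at 1.5-fold 45, at 2-fold 47 and at 4-fold 50, and 10 unchanged genes were called. The simulated counts had the same spread for every gene and no library that stood apart. They therefore do not give the error rates in the real libraries.

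Genes were named by a rule: Alpk1, up to 5 called genes per pattern and direction with the largest lower bound, at least 5 CPM and a proper gene name, up to 4 called members per list by p (the 2 most abundant where none was called), all relay genes and the 6 closest alike genes. Further list members, among them Mx1, Ifit1, Isg15, Dusp1, Gpr84, Cxcr4, Mdm2 and Fabp4, were chosen after their values were seen. The members and lists were chosen with earlier results of these data known. Lists are described by counts and medians beside all genes. Promoter windows are from RefSeq on GRCm38.p6. Alternatives were DESeq2 1.42.0 size factors and Wald test, limma 3.58.1 voom, library totals only, other filters, no robust estimation, glmTreat, a replicate block, all rows with KO columns realigned, and each library left out.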

Additional observations from a re-analysis of the deposited data

Results flagged for a closer look

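For 413 genes with a positive and 334 with a negative interaction, both genotypes had a called response and the responses were of opposite sign; the difference was tested for each as the interaction itself. Tnf, Dusp4, Sdc4, Txnip and Sesn1 belong to these genes, and their values by library are given above. In the rows below the shift, which no comparison above used, 982 genes were tested after the KO values had been set back by 1 row, and 171 had a positive and 93 a negative interaction (26.9% called).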

How the results depend on the processing

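Of the 213 named genes called, 202 stayed called with the same sign under all 21 alternatives that give a value per gene. The 11 that lost a call under at least 1 were Slco4a1, Lncpint, Ptbp2, Wdr66, Cox5a, Traf6, Tab2, Atp5b, Vangl1, Cdpf1 and Zfp971. Named genes were mostly chosen by a small p or a large lower bound, or after their values were seen. The calls they kept therefore do not describe the 6071 called genes as a whole. The whole-table calls were 3101 positive and 2945 negative with DESeq2 size factors, 2877 and 2563 with DESeq2's Wald test, 3046 and 3024 with limma-voom and 2948 and 3050 without the count filter. Tested against a 1.5-fold difference (glmTreat) they were 820 and 706. Leaving out libraries in turn gave 2774 to 3023 and 2772 to 2945. Realigned rows included, they were 3128 and 3060. Deviations from the group means had r of -0.37 to 0.22 (median 0.068) between libraries of the same replicate number. Between libraries of different numbers r was -0.22 to 0.24 (median -0.015). These weak correlations cannot settle whether the samples were paired. With a replicate block over the numbered libraries the calls were 2782 and 2777.

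Among the named genes, those that changed sign were not called. With library totals these were Map3k7 (-0.053), Tab3 (-0.14), mt-Co1 (-0.034), mt-Nd5 (-0.11), Ifi27l2a (-0.13), Sp100 (-0.096), Fabp4 (-0.059) and Trim30c (-0.024), with the median of all genes at -0.16. Without the filter Tab3 was -0.0015, and with the replicate block Tab3 was -0.011 and mt-Nd5 -0.018. Leaving out libraries in turn, Tab3 ranged over -0.038 to 0.069, Ifi27l2a over -0.047 to 0.11, mt-Co1 over -0.13 to 0.40 and mt-Nd5 over -0.20 to 0.31; the cause was not tested. Of the list counts under these alternatives, 1089 of 1134 lay within 1.5 times the reported one. The others, besides those given above, were mitosis genes (20 negative with library totals), glycolysis (2 negative) and TXNIP genes (1 positive) with library totals, class II genes (2 negative with DESeq2's Wald test), respiratory chain genes (1 negative with DESeq2, without the filter, without robust estimation, with realigned rows and with the replicate block), chemokines (0 negative with DESeq2 size factors), and NRF2 genes (2 negative without the filter, 3 with the block). The sign of the difference taken on the CPM scale, an alternative added after seeing the data, was opposite for 6 called genes (0.0988%). A gene that was not called may differ by as much as its interval allows, and the parts of depth, spread among libraries and their number in that interval were not tested.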
